A study of Rattus norvegicus with 10 samples.

Results

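The genes described here are those that help proteins fold in the endoplasmic reticulum (ER) or that carry out the unfolded-protein response, in lung of rats with and without Cmg2. The set was named by symbol and holds 25 genes, of which 3 had a row in the deposited table of 1319 genes: Xbp1, Manf and Ddit3. The other 22 are not analysed here. They are the chaperones and folding enzymes Hspa5, Hsp90b1, Pdia3, Pdia4, Pdia6, Dnajb9, Dnajb11, Dnajc3, Sdf2l1, Hyou1, Calr and Canx, the stress-induced lumenal gene Creld2, the degradation genes Herpud1, Sel1l, Edem1 and Derl3, and the sensors and regulators Ern1, Atf6, Atf4, Atf3 and Trib3. The 1319 genes are those with an unadjusted p under 0.05 between the genotypes in the authors' deposited table, where the highest value was 0.04998. The listed members were thus selected on the authors' p-value for the contrast described below, and their values in it are given as a description. The p-values in the authors' deposited table were 0.0250 for Manf, 0.0322 for Ddit3 and 0.0340 for Xbp1.

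RNA was sequenced from lung of Sprague Dawley rats, an outbred strain, at 8 weeks of age. A group of 5 libraries came from wild-type (WT) rats and another group of 5 from rats labelled Cmg2-KO, which lack capillary morphogenesis gene 2, a transmembrane receptor for anthrax toxin and extracellular matrix proteins. No treatment is given for either group, the way the allele was made is not given in the sources used here, and the targeted gene is not analysed here, so the labels have no check from its transcript. The labels do not tie libraries to animals, so errors and p-values measure the spread between these libraries, which may be technical. The values are scaled read counts, that is, the authors' reads per gene divided by a size factor for each library. One read was worth 0.869 to 1.11 scaled counts, and the listed genes held 1386578 to 1531531 scaled counts per library. The total depth is unknown. Transcripts of lung epithelium were abundant in every library, with 84205 scaled counts of the club cell gene Scgb1a1 and 42133 of the surfactant gene Sftpb in the libraries where they were lowest.

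The ER folds secreted and membrane proteins with the help of lumenal chaperones. When unfolded proteins build up, the membrane sensors IRE1, PERK and ATF6 signal to the nucleus. IRE1 splices Xbp1 mRNA into the form that encodes the active transcription factor XBP1s, which induces chaperones, ER-associated degradation and the secretory machinery. PERK slows translation and favours ATF4, which induces Ddit3, and ATF6 is cut in the Golgi to release another activator of chaperone genes. In lung, secretory epithelium, matrix-producing fibroblasts and plasma cells carry a heavy secretory load. Counts per gene do not separate spliced from unspliced Xbp1.

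The sequences just upstream of Xbp1 and Ddit3 are shown because the stress response is known to act through a promoter element, the ER stress response element (ERSE), which reads CCAAT, then 9 bases of any kind, then CCACG. Promoters are from RefSeq on build GRCr8, searched over the 250 bases before each gene's start on both strands. An entry was found for 19 of the 25 genes; those without one were Pdia3, Pdia6, Manf, Atf3, Atf6 and Ern1. Capitals in the next 2 sequences mark the ERSE of Xbp1 and, in Ddit3, a looser form on the opposite strand, in which CCAAT is followed by 10 bases of any kind and CACG. The looser form was chosen after the Ddit3 sequence was seen, and it includes every strict ERSE.
Xbp1, chr14:84604373-84604622, plus strand: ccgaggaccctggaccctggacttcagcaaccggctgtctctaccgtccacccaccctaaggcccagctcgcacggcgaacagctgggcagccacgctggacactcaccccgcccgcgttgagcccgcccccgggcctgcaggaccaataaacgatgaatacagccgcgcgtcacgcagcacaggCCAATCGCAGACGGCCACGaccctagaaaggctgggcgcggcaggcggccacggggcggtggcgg
Ddit3, chr7:65001445-65001694, plus strand: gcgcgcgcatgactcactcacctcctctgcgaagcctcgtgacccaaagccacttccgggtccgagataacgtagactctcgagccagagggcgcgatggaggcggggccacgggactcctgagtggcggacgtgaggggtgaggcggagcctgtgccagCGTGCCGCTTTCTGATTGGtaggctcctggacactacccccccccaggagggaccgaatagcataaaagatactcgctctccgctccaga

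The strict ERSE was in 22 of 33469 promoters (0.0657%), and 8 of these belong to the gene set: Xbp1, Hspa5, Hsp90b1, Dnajc3, Calr, Canx, Creld2 and Derl3. The looser form was in 58 promoters (0.173%), 9 of them in the set, with Ddit3 added. The set was named for ER folding and this stress response, which is known to act through the ERSE. Nothing is therefore read from these shares. The elements are lined up below on the strand that reads CCAAT first, with the fixed letters in capitals. Hspa5 encodes BiP, the main ER Hsp70 chaperone, Dnajc3 a BiP co-chaperone and Canx the lectin chaperone calnexin.
Hspa5: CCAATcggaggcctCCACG
Xbp1: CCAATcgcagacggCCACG
Dnajc3: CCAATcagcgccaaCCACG
Canx: CCAATcatcacgctCCACG
Ddit3: CCAATcagaaagcgGCACG

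The Xbp1 element lies 65 to 47 bases before the start and the Ddit3 one 90 to 72 bases before it. Of the other elements searched, ERSE-II (ATTGG, any base, then CCACG; 0.0418% of promoters) was in Hyou1 and Herpud1, the XBP1 and ATF6 element TGACGTGG (0.52%) in Hyou1, and the ATF4-type element TTGCATCA (0.693%) in Herpud1. These 3 elements had no match in the windows of Xbp1 and Ddit3. A match of letters is a description of the sequence and not evidence of binding.

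All 3 listed genes had higher means in Cmg2-KO lung, by 15.4% for Xbp1, 17.6% for Ddit3 and 23.5% for Manf, as 48.2% of the 1308 genes tested were higher. The libraries of the genotypes overlapped at each of them. The 3 genes are 12% of the set, while 6.63% of the 19894 genes in the authors' adjustment were listed and 3.2% were listed and higher. Since listing was decided on this same contrast, nothing is read from that share. None of the 3 passed an adjusted p of 0.05 in limma (adjusted p between 0.905 and 0.966), a threshold passed by 0.229% of the 1308 genes tested, and none passed it in the authors' deposited table, where 5.46% of the listed genes did. At an unadjusted p under 0.05 limma had 2 of the 3, Xbp1 and Manf, where 79.1% of the genes tested were under it. With the count tests edgeR and DESeq2, each on 9 libraries, 0 of the 3 had an adjusted p under 0.05. Over the whole table that threshold was passed by 1 of 1319 genes in edgeR and 49 of 1318 in DESeq2. In each count test 2 of the 3 had an unadjusted p under 0.05, as had 843 genes of the table in edgeR and 941 in DESeq2. WT 4 was the highest WT library at Xbp1. Leaving it out took the unadjusted p of Xbp1 in limma from 0.0422 to 0.0138, so the count tests are not like for like with limma on all libraries.

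Xbp1 (ENSRNOG00000010298, chromosome 14, 85753760 to 85758145, plus strand, coordinates as in the authors' table, whose build is not given), the transcription factor of the IRE1 branch, had 3859, 3534, 3658, 4319 and 3382 scaled counts in WT 1 to WT 5. It had 3818, 4275, 3973, 4470.2 and 5111 in Cmg2-KO 1 to Cmg2-KO 5. Only Cmg2-KO 4 and Cmg2-KO 5 lay above the highest WT library, and 3 WT libraries lay below the lowest Cmg2-KO library. The means were 3750.4 ± 363 and 4329 ± 505 scaled counts (SD, n = 5 per genotype), and the log2 fold change was 0.20 ± 0.09 (SE, limma on log2(scaled count + 1), Cmg2-KO over WT).

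Ddit3 (ENSRNOG00000006789, chromosome 7, 70580198 to 70585084, plus strand) encodes CHOP, a transcription factor of the PERK branch that promotes cell death under lasting stress. Its WT libraries, 1 to 5 in order, held 634, 676, 635, 616 and 653 scaled counts, and its Cmg2-KO libraries 654, 774, 618, 849 and 884. The WT libraries were close together, with a coefficient of variation of 3.56% against 15.5% in Cmg2-KO. Counting error alone, from 572 to 652 reads per WT library, gives 4.03%, so the order of the WT libraries at Ddit3 cannot be read. In Cmg2-KO counting error gives 3.59%. Cmg2-KO 2, Cmg2-KO 4 and Cmg2-KO 5 were above every WT library, while Cmg2-KO 1 and Cmg2-KO 3 were inside the WT range. Means were 643 ± 22.9 and 756 ± 117 scaled counts (SD, n = 5), with a log2 fold change of 0.22 ± 0.10 (SE).

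Manf (ENSRNOG00000014201, chromosome 8, 115623178 to 115626380, minus strand) encodes a small lumenal protein that binds BiP, is induced by ER stress and can be secreted. It had 3081, 2234, 2362, 2837 and 2429 scaled counts in WT 1 to WT 5. In Cmg2-KO 1 to Cmg2-KO 5 it had 2927, 3129.7, 2439, 3774 and 3717. The same Cmg2-KO libraries as for Ddit3 exceeded every WT library, and Cmg2-KO 3 was again the lowest of its group. Means were 2589 ± 356 and 3197 ± 560.4 scaled counts (SD, n = 5), with a log2 fold change of 0.30 ± 0.13 (SE).

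**Figure D1:**
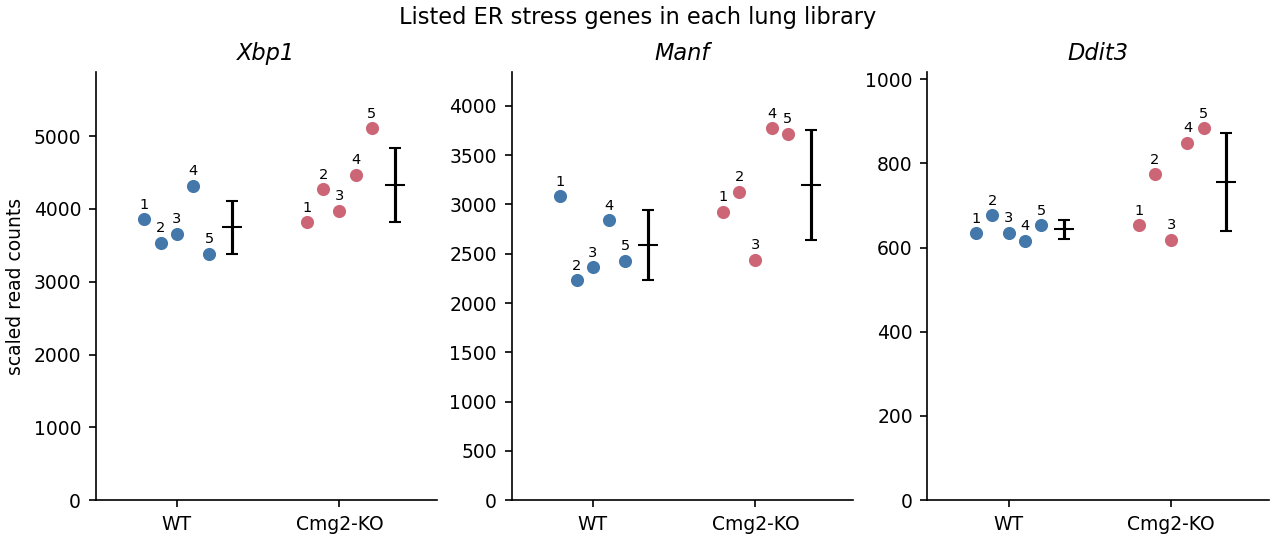
Scaled read counts (vertical axis, from 0) of Xbp1, Manf and Ddit3 in the 5 WT and 5 Cmg2-KO lung libraries; each point is a library with its replicate number, and the black mark gives the mean ± SD. Cmg2-KO 4 and Cmg2-KO 5 lie above all WT libraries for each gene, and Cmg2-KO 3 lies inside the WT range for each.

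No member had all 5 Cmg2-KO libraries above all 5 WT libraries, which 9.25% of the listed genes did. At least 3 Cmg2-KO libraries lay above every WT library at Manf and Ddit3, as at 39.8% of the listed genes (525 of 1319). Both shares are over all listed genes, also those lower in Cmg2-KO, and 636 of the 1319 were higher. Such a position is thus not rare for a listed gene that was higher. The size of the differences was small for this table. The absolute log2 fold change of Xbp1 exceeded that of 17% of the genes tested, that of Ddit3 19.3% and that of Manf 32.1%. Their median log2 fold change was 0.22, against -0.15 over all 1308 genes tested and 0.33 over the 631 of them that were higher. By mean level, Xbp1 exceeded 95.1% of the listed genes, Manf 92.3% and Ddit3 71.3%.

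Per kilobase of gene length, Xbp1 and Manf had like levels and Ddit3 a lower one. In WT these were 3361 ± 325 scaled counts per kilobase for Xbp1, 3067 ± 422 for Manf and 695 ± 24.7 for Ddit3 (SD, n = 5). In Cmg2-KO they were 3879 ± 453, 3788 ± 664 and 817 ± 126 in the same order. The levels of Xbp1 and Manf differed by less than their SD in each genotype. The ratio of one member to another in the same library does not depend on the scaling. For every 1000 scaled counts of Xbp1 there were 143 to 193 of Ddit3 in WT and 156 to 190 in Cmg2-KO. For Manf the same ratio was 632 to 798 in WT and 614 to 844 in Cmg2-KO, so both ratios overlapped between genotypes.

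Variation shared among libraries of the same genotype, a measure not used to choose the genes, was compared between them. After each genotype's mean was subtracted from the log2 values, Xbp1 and Manf had a Pearson's r of 0.750 over the 10 libraries (two-sided exact permutation of libraries within genotype, p = 0.0246, adjusted p = 0.0737 over the 3 pairs) and a Spearman's rho of 0.709 (exact permutation p = 0.0383, adjusted p = 0.115). Without Cmg2-KO 5 and WT 4, the libraries farthest from the median of Xbp1, r was 0.759. For Manf and Ddit3 r was 0.652 (exact permutation p = 0.0974, adjusted p = 0.146) and rho 0.380 (exact permutation p = 0.319, adjusted p = 0.319), and r was 0.576 without Cmg2-KO 3 and WT 1. For Xbp1 and Ddit3 r was 0.564 (exact permutation p = 0.150, adjusted p = 0.150) and rho 0.490 (exact permutation p = 0.237, adjusted p = 0.319), and r was 0.627 without Cmg2-KO 5 and WT 4. None of the 3 pairs passed 0.05 after adjustment. Over all pairs of the 953 listed genes with a mean of at least 50 scaled counts the median r was 0.0116, with quartiles at -0.268 and 0.293 and the 95th percentile at 0.634.

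The relation of Xbp1 and Manf was positive in each genotype. Those of Ddit3 with Xbp1 and with Manf were positive in Cmg2-KO and negative in WT, so their pooled r mixes opposite signs. The WT spread of Ddit3 was no larger than counting error. In the Cmg2-KO group Cmg2-KO 1 and Cmg2-KO 3 were the lowest, Cmg2-KO 2 in the middle and Cmg2-KO 4 and Cmg2-KO 5 the highest for each of the 3 genes. With 5 libraries a genotype, no value of r is given within one.

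**Figure D2:**
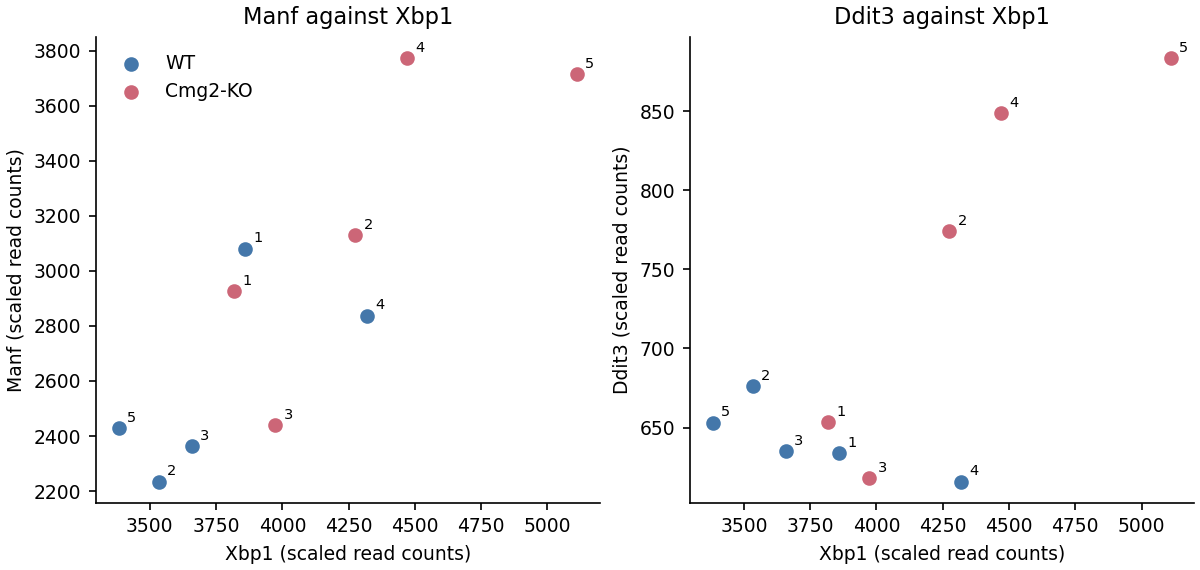
Scaled read counts of Manf (left) and Ddit3 (right) against those of Xbp1, 1 point per library, numbered by replicate, WT in blue and Cmg2-KO in red; the axes do not start at 0. Cmg2-KO 4 and Cmg2-KO 5 are high for all 3 genes, while Ddit3 stays between 616 and 676 in WT across the range of Xbp1.

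The genes whose variation within genotype was most like the mean of the 3 members were taken from 793 listed genes with a regular symbol and a mean of at least 50 scaled counts. This likeness is a Pearson correlation over the 10 libraries, which share their scaling, and is given as a description. The 6 closest were Ywhah (r = 0.915), a 14-3-3 adaptor protein, Cacybp (0.907), which binds S100 and Siah proteins, Thbs1 (0.891), the secreted matrix glycoprotein thrombospondin-1, Eln (0.866), elastin, Ptprk (0.856), a receptor tyrosine phosphatase, and Hoxb5 (0.853), a homeobox transcription factor. Eln had at most 11241.5 scaled counts in every WT library and in Cmg2-KO 1 and Cmg2-KO 3, against 17639, 17754 and 21159.9 in Cmg2-KO 2, Cmg2-KO 4 and Cmg2-KO 5. Those are the libraries in which Manf and Ddit3 exceeded WT. Thbs1 had 1380.3, 1971 and 1559 scaled counts in the same libraries, and its WT range was 672 to 1306.

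**Figure D3:**
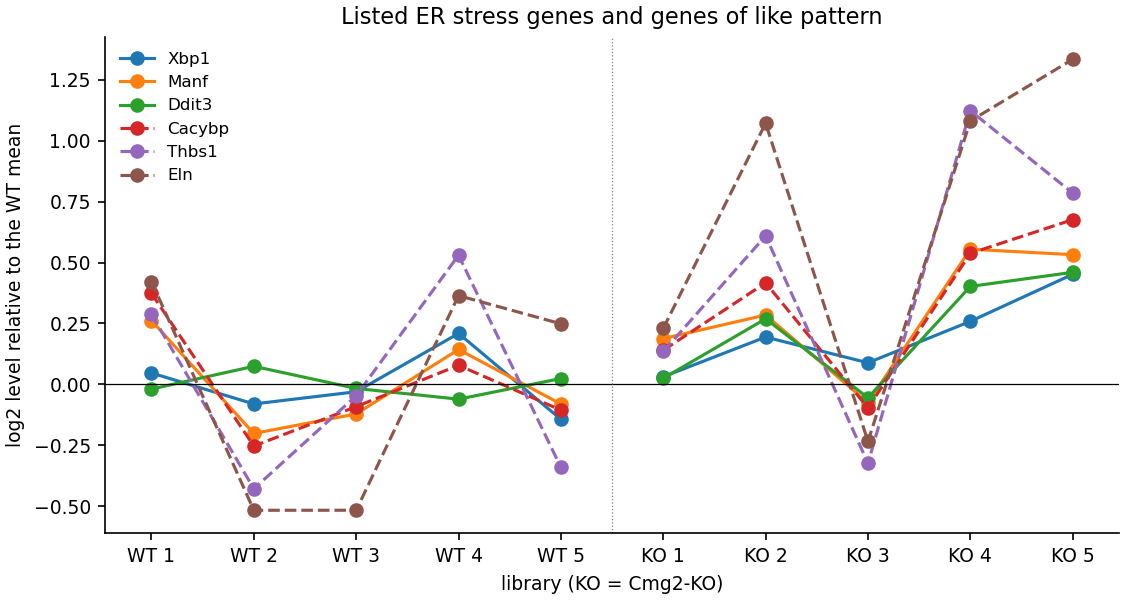
Log2 level relative to the WT mean (vertical axis) in each library (horizontal axis) for Xbp1, Manf and Ddit3 (solid lines) and for Cacybp, Thbs1 and Eln (dashed lines); lines join the values of a gene and imply no order of libraries. In the Cmg2-KO group all 6 genes are lower in Cmg2-KO 1 and Cmg2-KO 3 than in the other 3 libraries.

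Other genes of the ER and the secretory pathway, from 8 lists of 319 further symbols, were listed at 13 symbols, or 4.08%, where 6.63% of the genes in the authors' adjustment were. Some of the symbols are alternative spellings of the same gene. As these lists were chosen with earlier results of these data known, nothing is read from the shares. Of these 13, 11 had higher and 2 lower means in Cmg2-KO, where 48.2% of the genes tested were higher. In limma 0 of the 13 passed an adjusted p of 0.05, where 0.229% of the genes tested did. An unadjusted p under 0.05 was found for 11, a threshold that 79.1% of the genes tested passed. The median log2 fold change of the 13 was 0.11, against -0.15 over all genes tested. By list, 4 of 38 symbols for ER-associated degradation, 3 of 28 for translocation into the ER, 2 of 51 for other folding enzymes, 2 of 53 for ER to Golgi transport, 1 of 37 for sensors and regulators and 1 of 25 for ER calcium were listed. None of the 46 symbols of amino-acid response targets of ATF4, which also induces Ddit3, and none of the 42 symbols of N-glycosylation was among the listed genes analysed here.

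Syvn1, which encodes HRD1, the ubiquitin ligase of ER-associated degradation and an XBP1s target, ranged from 942 to 1084 scaled counts in the WT group and from 1061 to 1348 in the Cmg2-KO group, where 4 of 5 libraries lay above all WT libraries. Its means were 1021 ± 56.6 and 1205 ± 103 (SD, n = 5), its log2 fold change was 0.24 ± 0.07 (SE), and its likeness to the members was r = 0.843, rank 8 of the 793 genes. The other degradation genes differed less: the segregase gene Vcp by a log2 fold change of 0.09 ± 0.04, the VCP adaptor gene Ubxn4 by 0.11 ± 0.05 and the signal peptide peptidase gene Hm13 by 0.11 ± 0.05 (SE). Sec61a1, the pore of the translocon, had means of 2717 ± 108 and 3011 ± 202 scaled counts (SD, n = 5) and a log2 fold change of 0.15 ± 0.06 (SE). Tram1, another translocon component, had all 5 Cmg2-KO libraries, at 4067 to 4181, above all WT libraries, at 3695 to 4028. It was the only one of the 13 with this separation, which 9.25% of the listed genes had. Ckap4, a protein that shapes ER sheets, had a log2 fold change of 0.19 ± 0.07, Creb3, an ER-bound transcription factor, of 0.13 ± 0.05, and Sec31a, a coat protein of ER exit vesicles, of 0.11 ± 0.05 (SE). The 2 lower genes were Itpr3, an ER calcium release channel, at -0.30 ± 0.10, and Tmed4, a cargo receptor between ER and Golgi, at -0.15 ± 0.07 (SE). Among the 10 of these 13 genes with a promoter entry, 0 held the ERSE, and Vcp and Ckap4 held TGACGTGG.

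**Figure D4:**
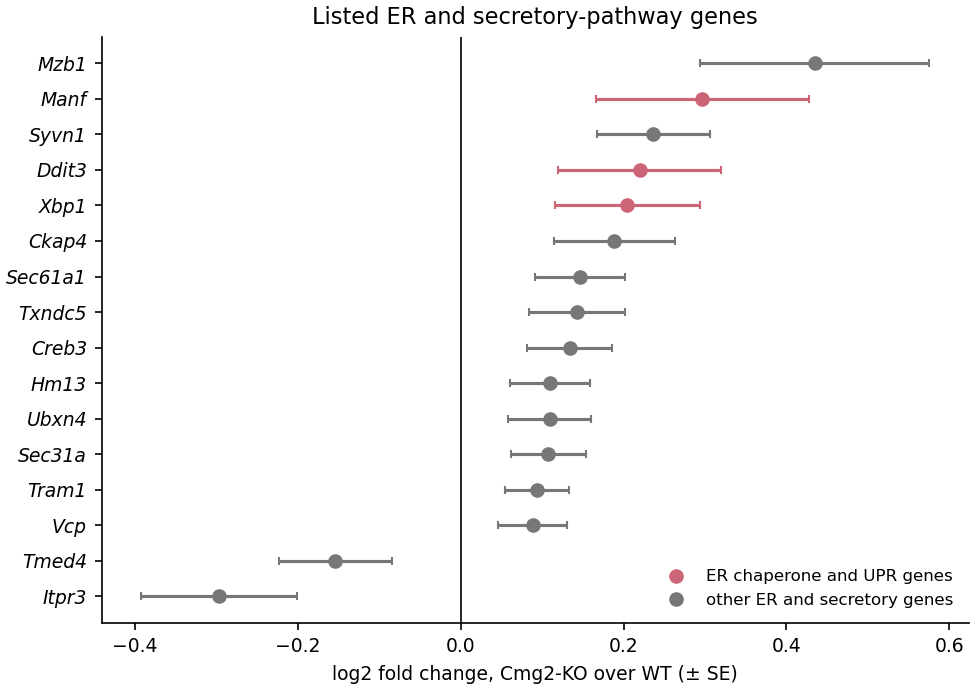
Log2 fold change of Cmg2-KO over WT (horizontal axis, ± SE) of the 16 listed ER and secretory-pathway genes (rows); Xbp1, Manf and Ddit3 are in red and the 13 other genes in grey. The values of 14 genes lie between 0.09 and 0.43, and those of Tmed4 and Itpr3 lie below 0.

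Plasma cells have a large ER, and their markers were examined beside these genes. Of 28 B and plasma cell markers, 3 were listed and had higher means in Cmg2-KO, a share of 10.7% where 6.63% of the genes in the authors' adjustment were listed, and 48.2% of the listed genes tested were higher. This list was chosen with earlier results of these data known, so its share is a description. In limma 0 of the 3 had an adjusted p under 0.05, where 0.229% of the genes tested did, and 3 had an unadjusted p under 0.05, as did 79.1%. The 3 were Jchain, the joining chain of secreted antibodies, and the ER proteins Mzb1 and Txndc5, which also stand among the folding genes. Their summed level was 4802 to 7121 scaled counts in the WT libraries and 6391 to 9924 in Cmg2-KO, and none of the 3 was at 0. Mzb1 ranged from 173 to 193 scaled counts in WT, while Cmg2-KO 1 to Cmg2-KO 5 had 179, 221, 273, 320 and 253. Its log2 fold change was 0.43 ± 0.14 (SE). Xbp1, Manf and Ddit3 were within the WT range in Cmg2-KO 1 and Cmg2-KO 3. Mzb1 was within its own WT range in Cmg2-KO 1, the lowest of its group, and second highest in Cmg2-KO 3. Likeness to the members was r = 0.524 for Jchain (rank 112 of 793 genes), 0.356 for Mzb1 (rank 214) and -0.153 for Txndc5 (rank 599). Markers of other cell types had values like that of Jchain: the fibroblast gene Dcn, lower in Cmg2-KO, had 0.523 and the mesothelial gene Msln, higher in Cmg2-KO, had 0.493. The part of plasma cells in the values of Xbp1, Manf and Ddit3 was not tested, and in bulk tissue more cells of a type cannot be told apart from more RNA per cell.

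Markers of other cell types went both ways. Beside the counts below, 6.63% of the genes in the authors' adjustment were listed, and 48.2% of the listed genes tested were higher. The marker lists were chosen with earlier results of these data known, so these counts are a description and nothing is read from the shares. Mesothelial markers were higher at 7 of 10 symbols, all those listed, with summed levels of 3364 to 5997 scaled counts in WT and 4062 to 7388 in Cmg2-KO. Lower in Cmg2-KO were 9 of 10 smooth muscle markers (30622 to 50316 in WT, 25352 to 37719 in Cmg2-KO), 4 of 13 club and secretory airway markers (144340.0 to 196851 and 84396 to 176966), 2 of 15 alveolar type 2 markers (47793 to 68170.0 and 44176 to 51235) and 2 of 13 fibroblast markers (1957 to 5256 and 1509 to 2669), again all those listed. Endothelial markers had 1 higher and 1 lower of 12, and none of 12 macrophage markers was among the listed genes. None of these listed markers was at 0 in any library. Their part in the values of Xbp1, Manf and Ddit3 was not tested.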

How the data were processed

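RNA from flash-frozen lung was made into 10 libraries with the NEBNext Ultra kit, per the labels' protocols; no source used here says that reads were counted by strand, and overlapping genes may share reads. The submitters' processing notes name HISAT2 2.0.5, an aligner, and featureCounts 1.5.0-p3, a read counter; no build is given in the sources used here. The authors deposited a signal, reads per gene divided by a size factor for each library, with their log2 fold change, fold (ratio) and p-values, per the file headers; the tool behind them is not given in the sources used here. Every deposited value was a whole multiple of 1 read, within 0.02 reads, for 100% of values. The deposited adjusted p-values were matched, at all but 6 genes, by Benjamini-Hochberg adjustment with 19894 genes.

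The plan named limma for such values. limma 3.58.1 in R 4.3.3 (trend and robust options) was fitted on log2(scaled count + 1) to the 1308 genes above 0.5 in at least 5 libraries, with Benjamini-Hochberg adjustment over 19894 genes. edgeR 4.0.16 and DESeq2 1.42.0 used recovered reads of 9 libraries, without WT 4. There 1 read is worth 1.01 scaled counts and the recovery was not accepted for these tests, although its values were also whole multiples of 1 read. The reads and counting errors given for the WT group include WT 4. The other alternatives changed the pseudocount, filter, scaling, limma options, adjustment and replicate block, and left out each library. The fits were tested on simulated data with planted changes larger than the differences of Xbp1, Manf and Ddit3. That test therefore does not cover differences of their size. Named genes were every listed member, listed genes of the lists, and the 6 genes most like the members. The members and lists were chosen with earlier results of these data known. Promoters came from RefSeq on GRCr8, matched by symbol.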

Additional observations from a re-analysis of the deposited data

Results flagged for a closer look

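In 25 genes (the 3 members, the listed ER, heat-shock and plasma cell genes and the 6 genes of like pattern), each genotype was searched for a library whose gap in log2 value to the nearest other exceeded 0.71 of the range over that genotype. This was found in 1 of 50 groups, where chance at 1 in 20 gives about 2.5. It was Ckap4 in WT 4, at 1204 scaled counts against 1002 to 1048 in the other WT libraries. WT 4 also had the highest Xbp1 of the WT group.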

How the results depend on the processing

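Xbp1, Manf and Ddit3 were higher in Cmg2-KO, and 0 of the 3 had an adjusted p under 0.05, under all 11 alternative settings and without each library in turn. Their median log2 fold change lay between 0.22 and 0.26 under the settings and between 0.16 (without Cmg2-KO 5) and 0.29 (without Cmg2-KO 3) when a library was left out. The 0.26 came from edgeR and DESeq2, which also left out WT 4, and limma without WT 4 gave 0.26 too. With adjustment over the listed genes only, the lowest adjusted p of the 3 in limma was 0.0595. That adjustment is too lenient, because the listed genes were selected on the authors' p-value for this same contrast, and nothing is read from it. Over all settings and libraries left out, adjusted p went up to 1. With the replicate number as a block the count with an adjusted p under 0.05 was 0 and the median log2 fold change 0.22. Same-numbered libraries had correlated deviations of -0.0156 to 0.0873, so the numbers were not taken to pair them; 3 of 5 WT libraries correlated best with their own number. Over the whole table, 3 genes passed in limma, 0 with the block, 1 in edgeR, 49 in DESeq2 and 257 with adjustment over the listed genes only. Without 1 library the number was 1 to 6. Depth limits Ddit3 most: with 572 to 652 reads per WT library, counting error is 4.03%, as large as its WT spread, against 1.68% for Xbp1 and 2.03% for Manf in WT.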

Other observations

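Genes of a cytosolic heat-shock list, not all of them chaperones, were listed at 3 of 37 symbols (8.11%, where 6.63% of the genes in the authors' adjustment were listed). Nothing is read from this share, since the list was chosen with earlier results of these data known. Dnaja1 and Cacybp, the latter rank 2 of 793 genes in likeness to the members, had higher means in Cmg2-KO and Hspb6 a lower one. Dnaja1, an Hsp40 co-chaperone of cytosolic Hsp70, held 5142, 2619.9, 4004, 3634 and 4026 scaled counts in WT 1 to WT 5 and 4225, 6600.3, 2896, 5939 and 8213 in Cmg2-KO 1 to Cmg2-KO 5. Its highest libraries, Cmg2-KO 2, Cmg2-KO 4 and Cmg2-KO 5, were those in which Manf and Ddit3 exceeded every WT library, and its likeness to the members was r = 0.818, rank 10 of 793 genes. Its log2 fold change was 0.46 ± 0.27 (SE) and did not pass limma's adjusted threshold. Hspb6, a small heat-shock protein of muscle, was lower at -0.18 ± 0.07 (SE), with a likeness of -0.0574.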
